A study of Mus musculus with 39 samples.

Results

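10 regulators that feed back on the ERK pathway were followed through a serial transplantation study of mouse acute myeloid leukaemia. They were the inhibitors Spred2, Spry1, Spry2 and Spry4, the phosphatases Dusp4, Dusp5 and Dusp6, the pleckstrin-homology-like gene Phlda1 and the ETS factors Etv4 and Etv5. The genes were chosen by name, and each was read from the array probe set that the platform annotation gives to that single symbol, taking the one with the highest mean where a gene had more than 1. All 10 were measured, out of 22180 genes. The leukaemias came in 3 arms. The AE9a+miR-126 arm carried AE9a and added miR-126, the miR-126KO+AE9a arm carried AE9a on a miR-126 knockout, and the AE9a arm carried AE9a alone. AE9a is a truncated, alternatively spliced form of the AML1-ETO fusion protein, and all 36 leukaemia samples carry it. Each arm was sampled at passages 1, 2, 3 and 4 (P1 to P4) of bone marrow transplantation, with 3 recipient mice at each passage. The reference for leukaemia as a whole was 3 normal controls (NC), which were collected at passage 1 and have no counterpart at later passages. In every mouse, donor cells bearing CD45.1 were sorted from bone marrow at end stage. The labels do not say how miR-126 was added or which donor seeded which recipient, and the p-values rest on how far recipients of one group differ. Passages of an arm may share leukaemia lines, yet the tests treat them as separate groups. The p-values, also those of means over passages, may therefore not carry the spread between independent leukaemias. The ages and sexes of the mice are not in the labels.

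The ERK pathway carries growth factor and cytokine signals from receptors through Ras, Raf and MEK to the kinases ERK1 and ERK2. Active ERK drives transcription of its own brakes, so the transcripts of these brakes are widely read as pathway output. Sprouty proteins act near the membrane, downstream of receptor tyrosine kinases, and Spred proteins bring the Ras inactivator neurofibromin to the membrane. The DUSP phosphatases remove phosphate from the MAP kinases, and Etv4 and Etv5 are ETS transcription factors of the PEA3 group that ERK signalling induces. miR-126 is known in endothelial cells for repressing Spred1, a relative of Spred2 that is not among the 10 genes.

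RNA was hybridised to Affymetrix GeneChip Mouse Gene 2.0 ST arrays, 1 array per mouse, 39 arrays in 13 groups of 3. Values are log2 expression values, so a difference of 1 is a doubling. Array SDs over probe sets ran from 1.43 to 2.08. Of the 8 arrays with an SD under 1.8, 7 were AE9a+miR-126 arrays of P2 to P4 (replicates 1 and 2 at P2, all 3 at P3, replicates 1 and 2 at P4) and the other was replicate 3 of miR-126KO+AE9a at P2. The probe set shared by Mir126a and its host gene Egfl7 had a lowest, median and highest value of 5.90, 8.08 and 11.56 in AE9a+miR-126, 2.77, 2.95 and 3.15 in miR-126KO+AE9a, 2.76, 2.88 and 3.04 in AE9a and 2.97, 3.04 and 3.88 in NC. The added-miR-126 arm stood apart on this probe set, while the knockout arm overlapped AE9a, so the probe set did not check the knockout. The mean of 5 blood cell genes (Ptprc, Vav1, Spi1, Laptm5 and Coro1a) lay between 8.28 and 10.30 in all arrays, and that of 8 stromal and endothelial genes between 5.39 and 6.17. The labels name miR-126 alone, and the mature sequence mmu-miR-126a-3p is shown with its seed, bases 2 to 8, in capitals. RefSeq (GRCm38.p6) places it at chr2:26591402-26591423, on the plus strand.
mmu-miR-126a-3p: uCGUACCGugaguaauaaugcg

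The 10 genes differed widely in how much they moved. Dusp6 had the widest range of group means, 2.99, and also the largest SD between mice of a group, 0.82. Group means of Dusp5 spanned 2.47, those of Phlda1 2.19 and those of Spred2 1.86, against within-group SDs of 0.40, 0.40 and 0.37. Spry2 (1.42), Etv5 (1.05) and Dusp4 (1.01) came next. Spry1, Spry4 and Etv4 were nearly flat, with ranges of 0.66, 0.58 and 0.40. Etv4 lay above its array's median signal on 2 of 39 arrays, Etv5 on 9 and Dusp4 on 19. Dusp5, Dusp6, Spred2 and Spry1 lay above it on all 39.

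**Figure D1:**
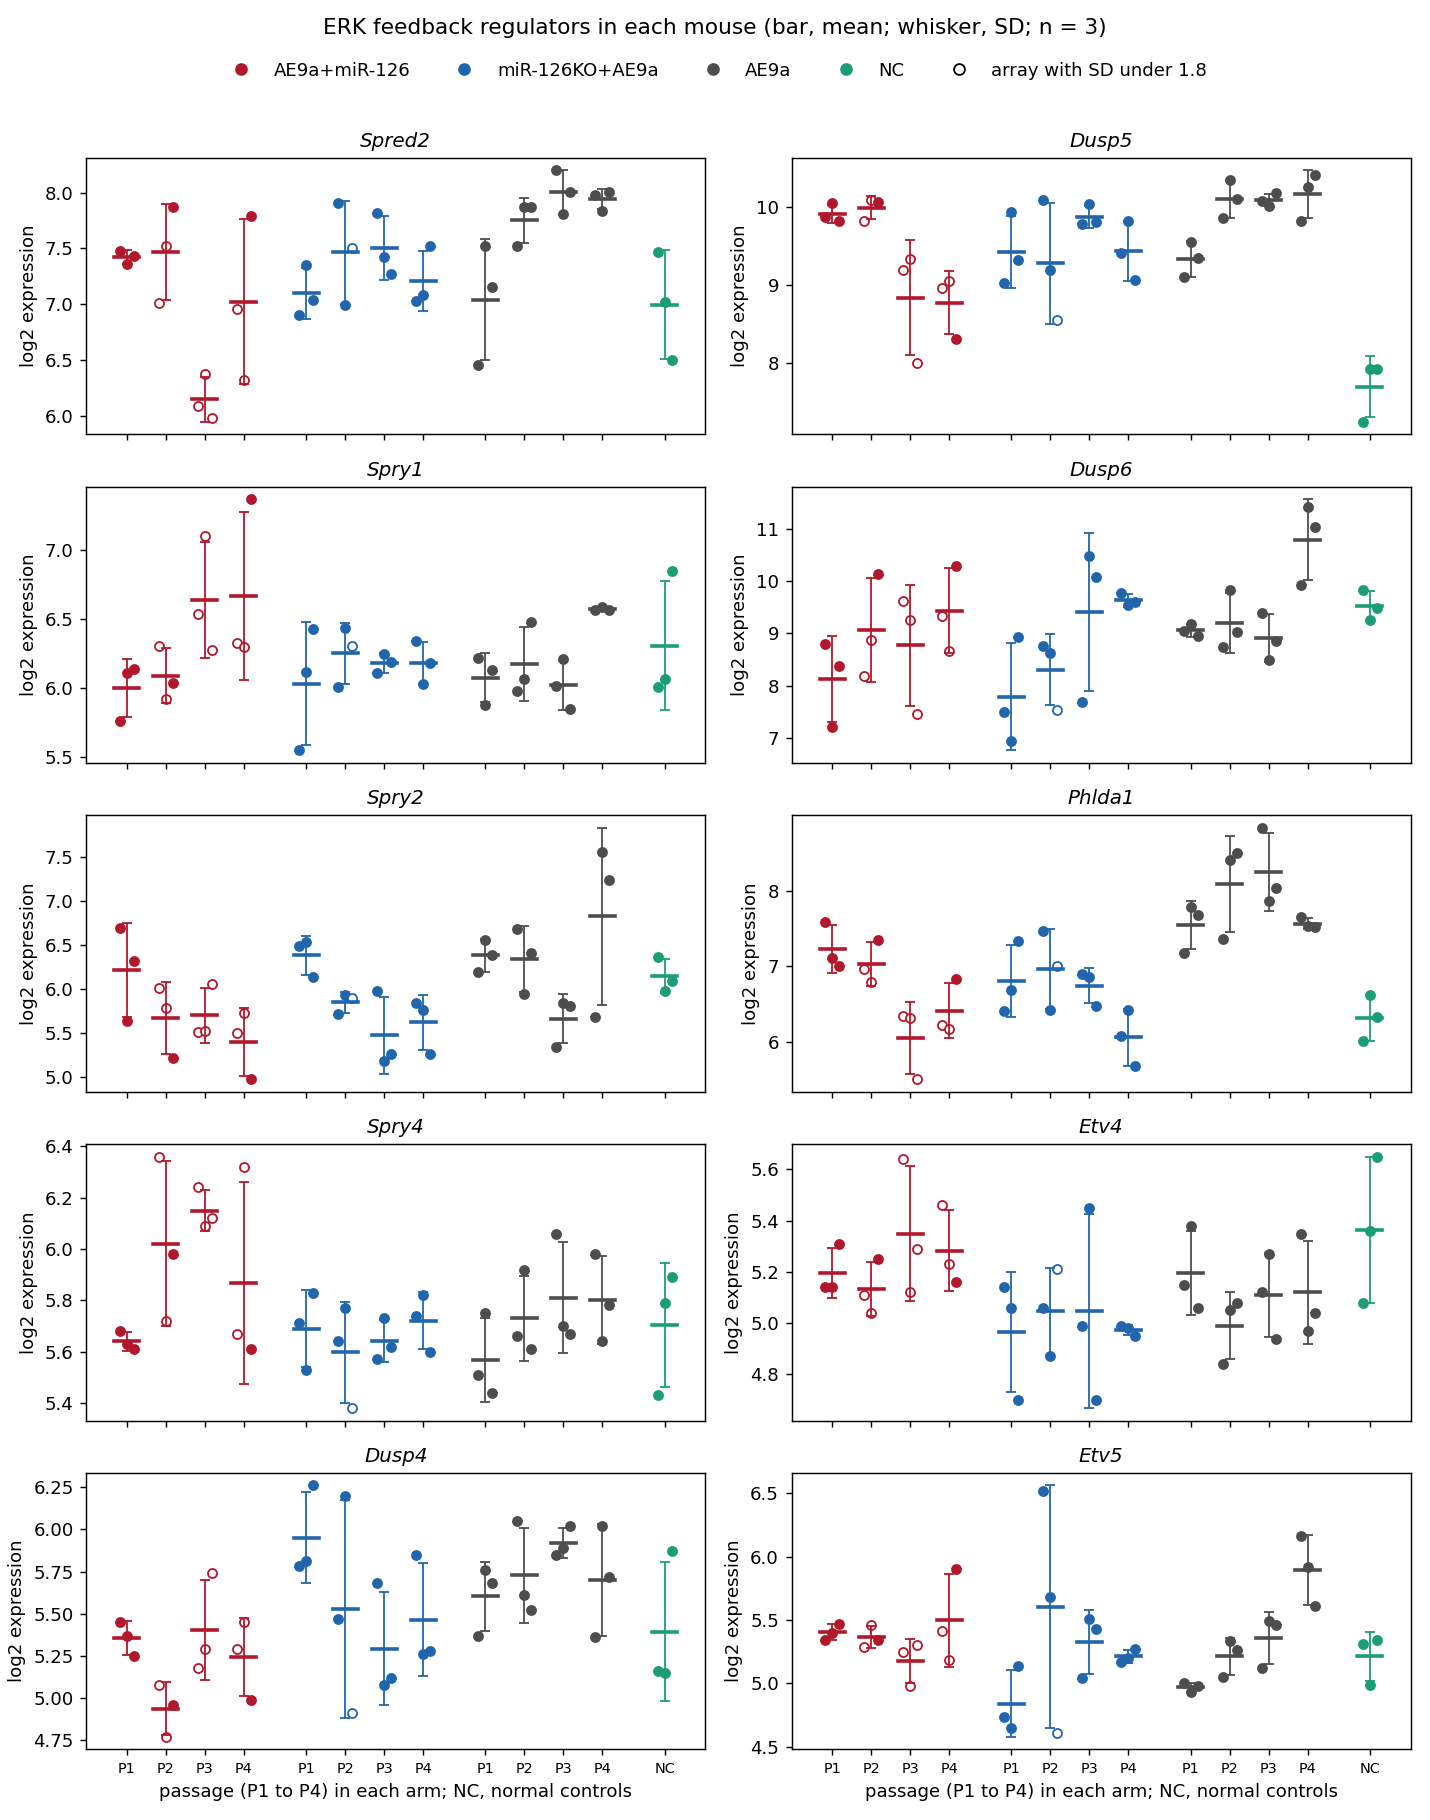
Log2 expression of each of the 10 genes (vertical axis of each panel) in every mouse by group along the horizontal axis. Bars are group means, whiskers SDs of 3 mice, and open points mark arrays with an SD under 1.8. Dusp5 in all 36 leukaemia arrays lies above the 3 NC arrays, which span 7.25 to 7.93.

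Against normal marrow, Dusp5 was the regulator that rose in every arm. Phlda1 rose in AE9a at P1 and P4. None of the other 8 genes passed the test against NC at P1 or P4 in any arm, where passing means a Benjamini-Hochberg adjusted p under 0.05 over all genes in limma. Spred2 in AE9a at P4 was higher than NC by 0.95 ± 0.29 without passing (adjusted p = 0.060), and it passed in 5 of 15 alternative settings. Dusp5 is a nuclear phosphatase specific for ERK1 and ERK2, and the gene lies at chr19:53529145-53541809 (GRCm38.p6). At P1 it had 9.88, 10.05 and 9.83 in AE9a+miR-126, 9.03, 9.94 and 9.32 in miR-126KO+AE9a, and 9.10, 9.56 and 9.35 in AE9a, against 7.25, 7.92 and 7.93 in NC. No leukaemia mouse overlapped a normal one. The difference from NC was 2.22 ± 0.31 in AE9a+miR-126 (SE, 4.66-fold, adjusted p = 1.69e-05), 1.73 ± 0.31 in miR-126KO+AE9a (3.31-fold, adjusted p = 0.000295) and 1.63 ± 0.31 in AE9a (adjusted p = 0.00107). At P4 it was 1.07 ± 0.31 in AE9a+miR-126 (2.11-fold, adjusted p = 0.0109), 1.73 ± 0.31 in miR-126KO+AE9a (3.33-fold, adjusted p = 0.000639) and 2.47 ± 0.31 in AE9a (5.55-fold, adjusted p = 5.21e-06). The lowest of all 36 leukaemia arrays, at 8.00, was still above the highest NC array. Of all genes, 166 (0.748%) had every leukaemia array above every NC array. The P4 call in AE9a+miR-126 did not hold without replicate 1 or 2 of that group (adjusted p = 0.060 and 0.072) or without NC replicate 1 (adjusted p = 0.079). Nor did it hold with only the groups compared (adjusted p = 0.063). Without the low-spread arrays, which leaves replicate 3 alone in that group, the difference was 0.61 and did not pass. All 3 arms were set against the same 3 NC mice, so these differences are not independent of each other.

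The Dusp5 promoter is shown because this gene separated leukaemia from normal marrow. The window, taken from RefSeq (GRCm38.p6), runs from 250 bases before to 50 after the transcript start, at chr19:53528895-53529194 on the plus strand. The capitals mark 2 adjacent CArG boxes, the sequence bound by serum response factor, at positions −82 to −73 and −72 to −63, counting the first transcribed base as 0.
Dusp5 promoter: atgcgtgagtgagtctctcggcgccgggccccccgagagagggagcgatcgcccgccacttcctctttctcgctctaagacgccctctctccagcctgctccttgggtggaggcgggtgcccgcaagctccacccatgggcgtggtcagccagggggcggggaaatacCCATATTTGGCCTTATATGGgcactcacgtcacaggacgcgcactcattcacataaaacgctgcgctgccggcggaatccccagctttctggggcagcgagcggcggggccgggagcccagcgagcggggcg
Of 32851 such windows, 535 (1.63%) held a CArG box on either strand and 6 (0.018%) held 2 or more. The 3 other motifs searched on both strands were TGANTCA (AP-1), TGACGTCA (CRE) and CCGGAAG (ETS), present in 7.81%, 1.79% and 8.86% of windows. The windows of the 5 other regulators with an entry (Spred2, Spry1, Spry2, Dusp6 and Etv5) held none of the 4 motifs. A match describes the letters and shows no binding.

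Phlda1, a pleckstrin-homology-like protein whose transcript ERK signalling induces, lies at chr10:111506286-111508649. At P1 it had 7.18, 7.78 and 7.68 in AE9a, against 6.01, 6.62 and 6.33 in NC. The groups did not overlap and the difference was 1.23 ± 0.31 (2.34-fold, adjusted p = 0.0122). At P4 the AE9a difference was 1.25 ± 0.31 (2.37-fold, adjusted p = 0.0156). The P1 call was lost without AE9a replicate 2 (adjusted p = 0.067) or NC replicate 1 (adjusted p = 0.070). The P4 call was lost without any 1 of the 3 AE9a mice (adjusted p = 0.050 to 0.052) or NC replicate 1 (adjusted p = 0.087). In AE9a+miR-126 at P1, Phlda1 had 7.59, 7.11 and 7.0, all above NC, with a difference of 0.91 ± 0.31 that did not pass (adjusted p = 0.062).

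Dusp6 (chr10:99263231-99267489), the cytoplasmic ERK-specific phosphatase, was below NC at P1 in all 3 arms without passing. It had 8.80, 7.22 and 8.38 in AE9a+miR-126, 7.50, 6.95 and 8.94 in miR-126KO+AE9a, and 9.04, 9.18 and 8.95 in AE9a, against 9.83, 9.26 and 9.48 in NC. Every mouse of the 3 arms lay below every NC mouse, with differences of −1.39 ± 0.62 in AE9a+miR-126 (adjusted p = 0.18), −1.73 ± 0.62 in miR-126KO+AE9a (adjusted p = 0.073) and −0.47 ± 0.62 in AE9a (adjusted p = 0.69). The knockout difference passed in 6 of 15 settings, among them quantile normalization (−1.80, adjusted p = 0.030). The scatter within groups was large. At P4 Dusp6 in AE9a stood at 9.92, 11.41 and 11.03, above every NC mouse, with a difference of 1.26 that did not pass (adjusted p = 0.34).

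At P1 the test was passed by 1 of the 10 genes in AE9a+miR-126, 1 in miR-126KO+AE9a and 2 in AE9a. The share of all genes that passed was 9.73% in AE9a+miR-126, 10.8% in miR-126KO+AE9a and 8.87% in AE9a, so these counts lie near the background. At P4 the counts were 1 in AE9a+miR-126 (31.5% of all genes), 1 in miR-126KO+AE9a (5.68%) and 2 in AE9a (4.40%). In these bulk samples, fewer cells of a type and less RNA per cell cannot be told apart. Markers of other cell types moved with the contrast. At P1 the B cell markers that fell, out of 7 measured of 8 listed, numbered 6 in AE9a+miR-126, 7 in miR-126KO+AE9a and 4 in AE9a. Of 12 neutrophil markers, 0 fell in AE9a+miR-126, 8 in miR-126KO+AE9a and 0 in AE9a. The B cell markers had a mean level of 5.44 to 7.33 in AE9a+miR-126, 5.50 to 6.15 in miR-126KO+AE9a and 6.83 to 7.40 in AE9a, against 7.78 to 8.94 in NC. The neutrophil markers had 9.81 to 11.48 in AE9a+miR-126, 9.09 to 11.07 in miR-126KO+AE9a and 11.49 to 11.61 in AE9a, against 11.77 to 11.93 in NC. The part of these shifts in the Dusp5 and Phlda1 differences was not tested.

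**Figure D2:**
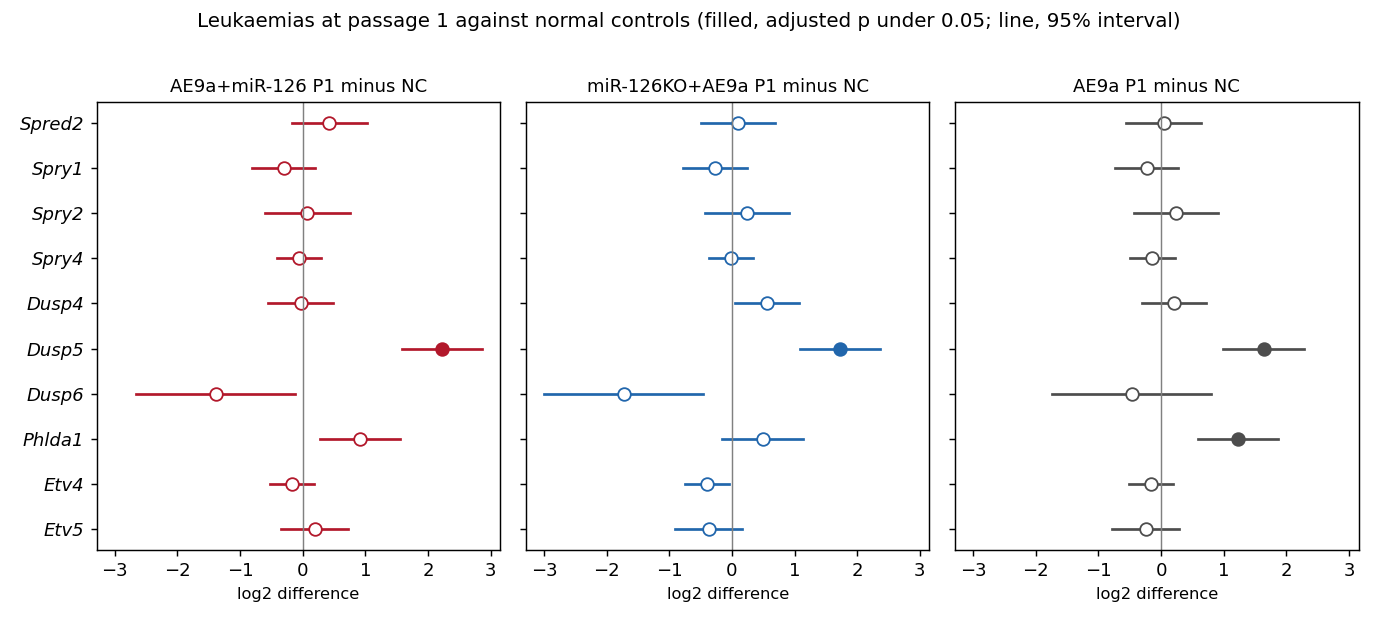
Log2 difference of each arm at P1 from NC (horizontal axis) for the 10 genes, with 95% intervals and filled points where the adjusted p is under 0.05. Dusp5 is filled in all 3 panels, at 2.22 in AE9a+miR-126, 1.73 in miR-126KO+AE9a and 1.63 in AE9a.

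The second question was how added or deleted miR-126 changed these regulators within AE9a leukaemia, taken as the mean over P1 to P4. Phlda1 fell in both miR-126 arms. It was 2.32-fold lower in miR-126KO+AE9a and 2.26-fold lower in AE9a+miR-126 than in AE9a. Spred2, Spry2, Dusp4 and Dusp5 were also lower with added miR-126, though each of these calls was lost under some setting, as given below. Phlda1 was the single gene of the 10 to pass in the knockout. Both comparisons use the same 12 AE9a mice.

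With added miR-126, 5 of 10 genes passed, all lower, where 55.1% of all genes passed and 24.3% were lower. The share that passed is near the background. The median difference of the 10 genes was −0.52, against 0.08 over all genes. In miR-126KO+AE9a 1 of 10 passed, against 8.17% of all genes, and the median was −0.27, against 0.01 over all genes.

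Phlda1 had a lowest, median and highest value of 5.51, 6.82 and 7.59 in AE9a+miR-126, 5.68, 6.58 and 7.47 in miR-126KO+AE9a, and 7.18, 7.73 and 8.83 in AE9a. Both miR-126 arms and AE9a overlapped at their edges, and the 4 AE9a groups were the 4 highest of all 13 group means. The difference from AE9a was −1.17 ± 0.16 in AE9a+miR-126 (adjusted p = 9.96e-07) and −1.21 ± 0.16 in miR-126KO+AE9a (adjusted p = 4.45e-06). The knockout difference passed in 37 of 37 settings tried, between −1.37 and −1.12. The difference with added miR-126 passed in 36 of 37, and in the exception, without the low-spread arrays, it was −0.59. In means over passages with added miR-126, that setting leaves out P3, and P2 and P4 of that arm keep replicate 3 alone. Between the 2 miR-126 arms Phlda1 differed by 0.04, with a 95% interval from −0.28 to 0.36.

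Among the membrane inhibitors, Spred2 (chr11:19924442-20024026) averaged 7.02 ± 0.67 in AE9a+miR-126, 7.32 ± 0.33 in miR-126KO+AE9a and 7.69 ± 0.48 in AE9a (SD, n = 12 each). Its difference with added miR-126 was −0.67 ± 0.15 (adjusted p = 0.000473). It was −0.13 with array spread as a covariate and −0.28 without P3, and passed in neither. Without the low-spread arrays, and so without P3, it was 0.11 and did not pass. The knockout difference of −0.37 did not pass (adjusted p = 0.14). Spry2 averaged 5.74 ± 0.47 in AE9a+miR-126, 5.83 ± 0.44 in miR-126KO+AE9a and 6.30 ± 0.65 in AE9a (SD, n = 12 each), and its gene lies at chr14:105891947-105896819. It differed by −0.56 ± 0.17 with added miR-126 (adjusted p = 0.00609), a call lost without P4 (−0.27), and by −0.47 in the knockout, which did not pass (adjusted p = 0.078). Spry1 (0.14, adjusted p = 0.35) and Spry4 (0.19, adjusted p = 0.060) did not pass with added miR-126.

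Among the phosphatases, Dusp4 (chr8:34807610-34819894), a nuclear enzyme that acts on several MAP kinases, averaged 5.23 ± 0.26 in AE9a+miR-126, 5.56 ± 0.44 in miR-126KO+AE9a and 5.74 ± 0.24 in AE9a (SD, n = 12 each). Its difference with added miR-126 was −0.50 ± 0.13 (adjusted p = 0.00164). Without the low-spread arrays, and so without P3, it was −0.58 and no longer passed. Dusp5 averaged 9.38 ± 0.70 in AE9a+miR-126, 9.51 ± 0.48 in miR-126KO+AE9a and 9.93 ± 0.41 in AE9a (SD, n = 12 each). Its difference with added miR-126 was −0.54 ± 0.16 (adjusted p = 0.00503). The call was lost under quantile normalization (−0.18), cyclic loess (−0.06), the spread covariate (−0.46), without the low-spread arrays (−0.44), without P3 (−0.31) and without P4 (−0.26). Dusp6 differed by −0.64 ± 0.31 with added miR-126 (adjusted p = 0.080) and by −0.70 ± 0.31 in the knockout (adjusted p = 0.20), without passing.

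The ETS factors differed in their span. Etv4 ranged from 5.04 to 5.64 in AE9a+miR-126, from 4.70 to 5.45 in miR-126KO+AE9a and from 4.84 to 5.38 in AE9a. Etv5 ranged from 4.98 to 5.90 in AE9a+miR-126, from 4.61 to 6.52 in miR-126KO+AE9a and from 4.93 to 6.16 in AE9a, with averages of 5.36 ± 0.22 in AE9a+miR-126, 5.25 ± 0.52 in miR-126KO+AE9a and 5.36 ± 0.39 in AE9a (SD, n = 12 each). Neither passed against AE9a in either arm. For Etv4 with added miR-126 the adjusted p was 0.18, and for Etv5 it was 0.99.

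**Figure D3:**
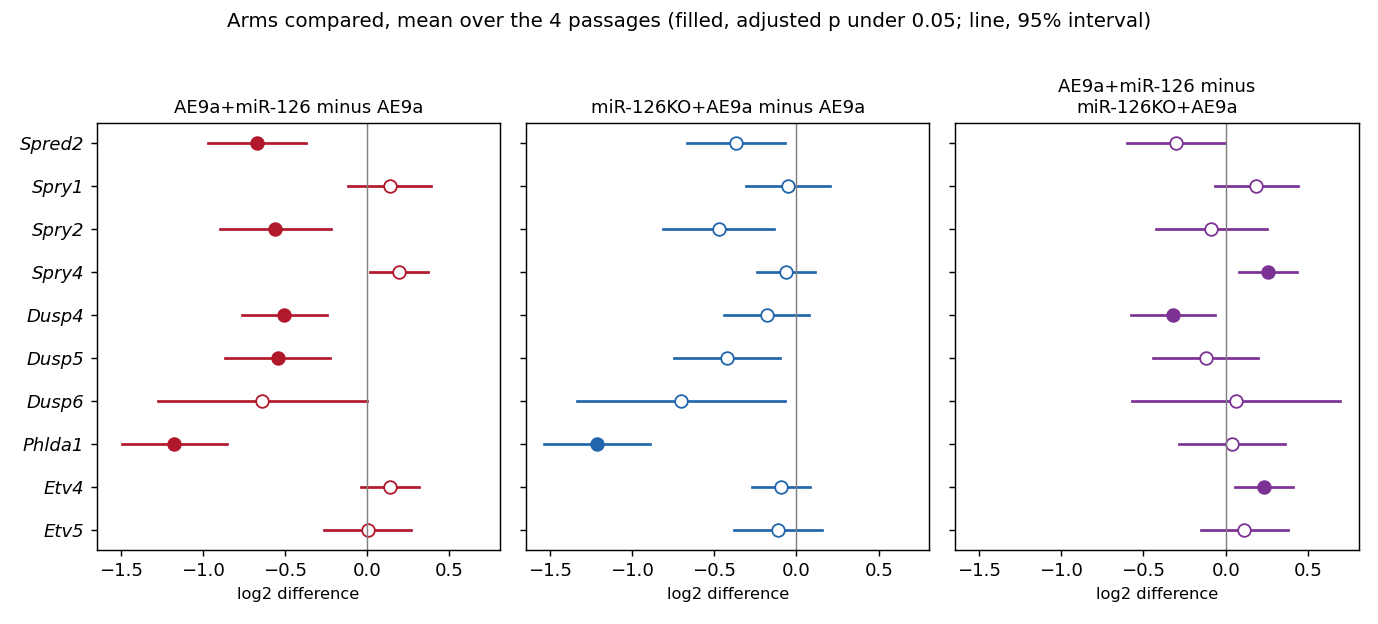
Log2 differences (horizontal axis) averaged over P1 to P4 for the 10 genes, with 95% intervals, for AE9a+miR-126 minus AE9a, miR-126KO+AE9a minus AE9a, and AE9a+miR-126 minus miR-126KO+AE9a. Filled points have an adjusted p under 0.05, and Phlda1 lies at −1.17, −1.21 and 0.04 in these comparisons.

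Set directly against the knockout, added miR-126 gave 3 of 10 genes that passed, where 49.7% of all genes did. Spry4 was higher by 0.26 ± 0.09 (adjusted p = 0.0165), Etv4 was higher by 0.23 ± 0.09 (adjusted p = 0.0282), and Dusp4 differed by −0.32 ± 0.13 (adjusted p = 0.0345). All 3 are small, and the calls were lost in 5, 11 and 12 of 37 settings. The Spry4 call was lost under cyclic loess (0.18) and with the spread covariate (0.14), though not under quantile normalization. Etv4 no longer passed under quantile normalization (0.09), cyclic loess (0.04) or the spread covariate (0.20). Dusp4 kept its call under these settings. Without the low-spread arrays, and so without P3, Spry4 differed by 0.03 and Etv4 by 0.23. Spred2 differed by −0.30 (adjusted p = 0.081).

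Marker genes of neutrophils, the mature granulocytes of marrow, moved with the miR-126 contrasts. Of 12 neutrophil markers, all measured, 11 were lower in AE9a+miR-126 than in AE9a (median −2.01) and 12 were lower in miR-126KO+AE9a than in AE9a (median −1.60). Their mean level at P4 was 6.75 to 6.97 in AE9a+miR-126, 9.62 to 10.28 in miR-126KO+AE9a, 10.91 to 11.39 in AE9a and 11.77 to 11.93 in NC (NC at P1). The 5 blood cell genes were also lower with added miR-126 (5 of 5, median −0.49). Of all genes, 24.3% were lower and 30.7% higher with added miR-126 than in AE9a, and 5.29% lower and 2.88% higher in the knockout. Of the 8 low-spread arrays, 7 were of the arm with added miR-126. Of 11 monocyte and macrophage markers measured, 1 was higher and 7 were lower with added miR-126 than in AE9a (median −0.74), and 3 were higher and 1 lower in the knockout (median 0.24). Of 7 mast cell and basophil markers, 0 were higher and 6 lower with added miR-126 (median −1.18), and 1 was higher and 2 lower in the knockout (median −0.30). Of 7 T and NK cell markers measured, 4 were lower in each of these arms. The part of these shifts in the Phlda1, Spred2 and Dusp5 differences was not tested.

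Passage by passage, no gene passed against AE9a with added miR-126 at P1, and 2 to 4 did at each later passage. At P1, 0 of 10 genes passed in limma against 0.0316% of all genes, and 0 had an unadjusted p under 0.05. At P2, 2 passed (8.85% of all genes), at P3 4 (52.2%) and at P4 4 (24.7%). The P2 count was 0 to 1 under 5 alternatives, the P3 count was 1 with the spread covariate, and the P4 count was 2 under cyclic loess, with the spread covariate and without the low-spread arrays. Dusp5 and Spred2 were the genes whose difference from AE9a itself changed between P1 and P4 in the test of that change, which 10.5% of all genes passed.

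Dusp5 at P4 had 8.97, 9.05 and 8.31 in AE9a+miR-126, against 9.83, 10.26 and 10.42 in AE9a. Every AE9a+miR-126 mouse was below every AE9a mouse, whereas at P1 every one was above (9.88, 10.05 and 9.83, against 9.10, 9.56 and 9.35). The difference was 0.58 ± 0.31 at P1 (adjusted p = 0.99), −1.25 ± 0.31 at P3 (adjusted p = 0.00186) and −1.40 ± 0.31 at P4 (adjusted p = 0.00207). The change between P1 and P4 was −1.98 ± 0.44 (adjusted p = 0.00542), and it passed in 20 of 21 settings, the exception being cyclic loess (−1.36, adjusted p = 0.069). The P3 difference of Dusp5 did not pass under quantile normalization (−0.41), cyclic loess (−0.14) or the spread covariate (−1.07), and the P4 difference was −0.88 under cyclic loess (adjusted p = 0.052).

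Spred2 at P4 had 6.96, 6.32 and 7.79 in AE9a+miR-126, against 7.98, 7.84 and 8.01 in AE9a, and the groups did not overlap. At P3 the separation was widest, with 6.09, 6.37 and 5.98 in AE9a+miR-126, against 8.20, 7.81 and 8.01 in AE9a. The difference was 0.38 at P1 (adjusted p = 0.99), −1.86 ± 0.29 at P3 (adjusted p = 1.46e-05) and −0.92 ± 0.29 at P4 (adjusted p = 0.0228). The change between P1 and P4 was −1.30 ± 0.41 (adjusted p = 0.0418), and this call was lost in 16 of 21 settings. The P3 difference of Spred2 was −0.77 with the spread covariate (adjusted p = 0.097), and the P4 difference passed neither there (−0.24) nor under quantile normalization (−0.63), cyclic loess (−0.56) or without the low-spread arrays (−0.15). All 3 AE9a+miR-126 arrays at P3 and 2 of 3 at P4 have a low spread.

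The Spred2 promoter, from RefSeq (GRCm38.p6) at chr11:19924192-19924491 on the plus strand, is shown for comparison with that of Dusp5. These 2 genes passed the test of the change between passages, though the Spred2 call was lost in 16 of 21 settings. It held none of the 4 motifs, and none of its letters are in capitals.
Spred2 promoter: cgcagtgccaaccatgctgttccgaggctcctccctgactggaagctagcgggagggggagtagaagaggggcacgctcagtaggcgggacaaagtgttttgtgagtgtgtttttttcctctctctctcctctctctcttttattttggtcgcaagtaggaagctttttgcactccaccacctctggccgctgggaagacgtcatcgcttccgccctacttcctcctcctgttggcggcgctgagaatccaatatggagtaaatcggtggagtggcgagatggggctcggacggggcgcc

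Phlda1 was lower with added miR-126 than in AE9a at P2 (−1.05 ± 0.31, adjusted p = 0.0363), P3 (−2.19 ± 0.31, adjusted p = 4.58e-06) and P4 (−1.15 ± 0.31, adjusted p = 0.0096). In the knockout its differences were −0.74 at P1 (adjusted p = 0.31), −1.11 at P2 (adjusted p = 0.0384), −1.50 at P3 (adjusted p = 0.0119) and −1.50 at P4 (adjusted p = 0.00742). At P4 the values were 6.08, 6.43 and 5.68 in miR-126KO+AE9a, against 7.65, 7.53 and 7.52 in AE9a, with no overlap. With added miR-126 the Phlda1 difference at P4 did not pass with the spread covariate (−0.83) or without the low-spread arrays (−0.73). At P2 the added-miR-126 difference of Phlda1 did not pass under quantile normalization (−0.69), cyclic loess (−0.74), the spread covariate (−0.78) or without the low-spread arrays (−0.74). The knockout difference at P2 did not pass under any of 5 alternatives (adjusted p = 0.051 to 0.095). In the knockout 0, 1, 1 and 1 of 10 genes passed at P1, P2, P3 and P4, against 2.09%, 3.99%, 1.05% and 1.33% of all genes, and each time the gene was Phlda1.

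Spry2 at P4 had 5.50, 5.72 and 4.97 in AE9a+miR-126, against 5.68, 7.56 and 7.24 in AE9a, and replicate 1 of AE9a lay among the AE9a+miR-126 mice. The difference was −1.42 ± 0.33 (adjusted p = 0.00279). The knockout difference at P4 was −1.20 (adjusted p = 0.067). The change between P1 and P4 with added miR-126 was −1.26 (adjusted p = 0.074), and without that AE9a mouse it was −1.83 (adjusted p = 0.0048). Dusp4 passed at P2 alone (−0.79 ± 0.25, adjusted p = 0.045, and 0.056 with the replicate block), and in 3 of 5 alternative settings there. At P3 Dusp4 differed by −0.52 (adjusted p = 0.081) and passed in 2 of 4 settings. Spry1 passed at P3 alone, where it was higher with added miR-126 (0.61 ± 0.25, adjusted p = 0.0395), and in 3 of 4 settings there. All AE9a+miR-126 arrays at P3 have a low spread. For the knockout, the change between P1 and P4 was passed by 0 of 10 genes in limma, against 0.428% of all genes, and 1 (Spry2, −1.21) had an unadjusted p under 0.05.

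**Figure D4:**
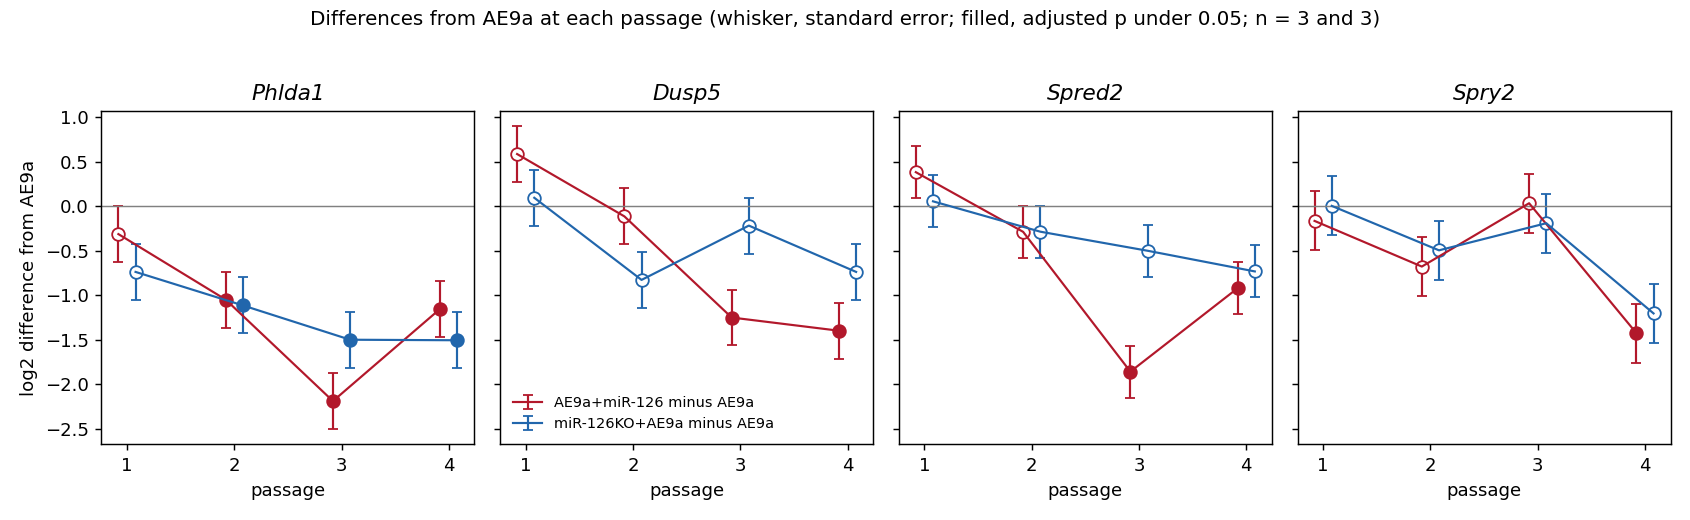
Log2 difference from AE9a (vertical axis) at passages 1 to 4 (horizontal axis) for Phlda1, Dusp5, Spred2 and Spry2 in AE9a+miR-126 and miR-126KO+AE9a. Whiskers are SEs and filled points have an adjusted p under 0.05. Dusp5 with added miR-126 lies at 0.58 at P1 and −1.40 at P4.

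P4 was then compared with P1 within each arm. In AE9a+miR-126, Dusp5 fell by 1.14 ± 0.31 on the log2 scale (adjusted p = 0.00892), with 8.97, 9.05 and 8.31 at P4 against 9.88, 10.05 and 9.83 at P1 and no overlap. That call was lost under quantile normalization (−0.72, adjusted p = 0.10) and cyclic loess (−0.59, adjusted p = 0.20). In AE9a, Etv5 rose by 0.93 ± 0.26 (adjusted p = 0.0456), with 6.16, 5.92 and 5.61 at P4 against 5.0, 4.93 and 4.98 at P1. The Etv5 call was lost when any 1 of the 6 mice was left out, and a second Etv5 probe set, not used in the tests, gave −0.09. Of 10 genes, 1 passed in AE9a+miR-126 (24.3% of all genes), 0 in miR-126KO+AE9a (4.04%) and 1 in AE9a (2.94%). In miR-126KO+AE9a, 3 genes had an unadjusted p under 0.05, namely Dusp6, Phlda1 and Spry2.

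Dusp6 had a higher mean at P4 than at P1 in all 3 arms, and whether it passed depended on the setting. The difference was 1.30 in AE9a+miR-126 (adjusted p = 0.12), 1.84 in miR-126KO+AE9a (adjusted p = 0.10) and 1.73 in AE9a (adjusted p = 0.14), and none of these passed. Of 15 settings, Dusp6 passed in 4 in AE9a+miR-126 (up to 2.25 with the spread covariate, adjusted p = 0.013), 6 in miR-126KO+AE9a and 1 in AE9a. In miR-126KO+AE9a it had 9.77, 9.54 and 9.59 at P4 against 7.50, 6.95 and 8.94 at P1, with no overlap. In AE9a it had 9.92, 11.41 and 11.03 at P4 against 9.04, 9.18 and 8.95 at P1, also with no overlap, while in AE9a+miR-126 P4 and P1 overlapped. Its SE of 0.62 was the widest of the 10 genes in these comparisons.

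Over the 13 group means, Spred2 and Phlda1 had a Pearson r of 0.76, Spred2 and Dusp5 0.70, and Dusp5 and Phlda1 0.67. Across the 39 arrays, after each group's mean was taken out, the same pairs had 0.48, 0.05 and 0.42. None of these correlations was tested. Dusp6 and Etv5 had 0.53 between groups and 0.38 within them. All these points share arrays and their normalization. Among 10244 other genes with a group mean of at least 6, the pattern most like that of Dusp5 was that of Mafk (r = 0.951) and Cish (0.943), for Phlda1 Rfx1 (0.952) and Hilpda (0.933), and for Spred2 Ltv1 (0.947) and Utp4 (0.927). For Dusp6 it was Cdkn2aipnl (0.873) and Fgd4 (0.866), for Dusp4 Rabl2 (0.862) and Exoc7 (0.827), for Spry1 Pde4a (0.917) and Adcy6 (0.886), and for Spry2 Prrc2b (0.875) and Asprv1 (0.865). For Spry4 it was Thsd1 (0.938) and Ttc34 (0.936), for Etv4 Aff3 (0.937) and Hvcn1 (0.897), and for Etv5 Cilk1 (0.851) and Nectin2 (0.834).

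The rest of the pathway was read from 4 lists. Of 25 other feedback regulators, all measured, 7 rose and 1 fell in AE9a+miR-126 at P1 against NC, 7 rose and 0 fell in miR-126KO+AE9a, and 4 rose and 0 fell in AE9a. Of all genes, 4.56% rose and 5.18% fell in AE9a+miR-126, 4.88% rose and 5.91% fell in miR-126KO+AE9a, and 3.22% rose and 5.64% fell in AE9a. In AE9a the share of calls that were rises was 36.3%, and 48.1% with array spread as a covariate. Errfi1, an inhibitor of EGF receptor family kinases, was higher by 4.56 ± 0.52 in AE9a+miR-126 (adjusted p = 6.64e-07), 4.40 ± 0.52 in miR-126KO+AE9a (adjusted p = 7.43e-07) and 3.52 ± 0.52 in AE9a (adjusted p = 5.19e-05). Ier3, an immediate early gene that prolongs ERK activity, was higher by 2.11 in AE9a+miR-126, 2.17 in miR-126KO+AE9a and 1.92 in AE9a. Socs3, an inhibitor of cytokine receptor signalling, was higher by 2.21 in AE9a+miR-126 and 1.60 in AE9a, and Spred1 was higher by 2.35 in miR-126KO+AE9a. Over the passages 30.7% of all genes were higher and 24.3% lower with added miR-126 than in AE9a, and 2.88% higher and 5.29% lower in the knockout, where 35.3% of calls were rises and 49.8% with the spread covariate. With added miR-126 28.0% were higher and 21.7% lower than in the knockout. Against AE9a over the passages, Rasa2, a Ras GTPase-activating protein, was lower, differing by −1.16 ± 0.15 in AE9a+miR-126 (adjusted p = 4.48e-07) and −1.13 ± 0.15 in miR-126KO+AE9a (adjusted p = 4.45e-06). The adaptor Sh2b3 (−0.58) and the ubiquitin ligase Cbl (−0.79) were also lower with added miR-126, while in the knockout Phlda3 was higher (0.69) and Dusp8 lower (−0.60). Against the knockout, added miR-126 gave lower Phlda3 (−0.88) and Spred1 (−1.11) and higher Spry3 (0.46). With added miR-126, 5 of the 25 were higher and 9 lower than in AE9a, but cyclic loess gave 6 and 3 and quantile normalization 7 and 4, so no direction is given for this list.

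Of 33 genes of the cascade itself, 27 were measured. At P1 against NC, 4 rose and 0 fell in AE9a+miR-126, 3 rose and 2 fell in miR-126KO+AE9a, and 2 rose and 0 fell in AE9a. The shares of all genes were 4.56% up and 5.18% down in AE9a+miR-126, 4.88% and 5.91% in miR-126KO+AE9a, and 3.22% and 5.64% in AE9a. The adaptor Gab2 rose by 1.22 ± 0.20 in AE9a+miR-126 (adjusted p = 0.0001), 1.33 ± 0.20 in miR-126KO+AE9a (adjusted p = 2.01e-05) and 1.38 ± 0.20 in AE9a (adjusted p = 3.74e-05). Nf1, the Ras inactivator that Spred proteins recruit, rose by 0.82 in AE9a+miR-126, 0.85 in miR-126KO+AE9a and 0.67 in AE9a. Lamtor3, a MEK scaffold, rose by 0.90 in AE9a+miR-126, and Rasgrp2, an exchange factor that acts mainly on Rap1, fell by 2.57 in miR-126KO+AE9a. Over the passages, 30.7% of all genes were higher and 24.3% lower with added miR-126 than in AE9a. Of the cascade genes 1 was higher and 18 were lower, with a median of −0.56. The count of lower genes was 12 under quantile normalization, 12 under cyclic loess, 7 with the spread covariate and 3 without the low-spread arrays. The Ras exchange factor Rasgrp4 (−2.26 ± 0.23, adjusted p = 8.99e-09), the adaptor Gab1 (−1.22) and the ERK-activating kinase Map2k1 (−1.16) led those that were lower. In the knockout 2 were higher and 6 lower (2.88% and 5.29% of all genes). The scaffold Ksr1 was lower (−0.90) and Rras (0.87) and Rasgrp1 (1.11) were higher. Against the knockout, added miR-126 gave 3 higher and 16 lower (28.0% and 21.7% of all genes), led by Rras (−2.06), Rps6ka3 (−1.10) and Map2k1 (−1.13).

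Of 19 genes on the list of ERK-induced early genes, which also holds the transcription factors Elk1, Elk3, Elk4 and Srf, 18 were measured. Fos was lower at P1 than in NC, differing by −2.01 in AE9a+miR-126 (adjusted p = 0.0115), −2.65 in miR-126KO+AE9a (adjusted p = 0.000748) and −2.45 in AE9a (adjusted p = 0.00294). The shares of all genes were 4.56% up and 5.18% down in AE9a+miR-126, 4.88% and 5.91% in miR-126KO+AE9a, and 3.22% and 5.64% in AE9a. Of the listed genes in AE9a+miR-126, 1 rose and 3 fell, Ets1 (−1.42) and Myc (−1.32) among those that fell. In miR-126KO+AE9a 2 rose and 3 fell, with Egr2 higher (2.22) and Ets1 lower (−1.65), and in AE9a 0 rose and 4 fell, Myc (−1.40) and Ier2 (−1.37) among them. Fos at P4 did not differ from NC past the test in any arm (0.53 in AE9a+miR-126, 0.91 in miR-126KO+AE9a and 0.80 in AE9a). At P4 against P1, 8 rose and 2 fell in AE9a+miR-126, 5 rose and 1 fell in miR-126KO+AE9a, and 9 rose and 0 fell in AE9a. Of all genes, 11.1% rose and 13.2% fell in AE9a+miR-126, 1.38% rose and 2.66% fell in miR-126KO+AE9a, and 2.02% rose and 0.915% fell in AE9a. The share of calls that were rises was 45.8% in AE9a+miR-126 and 61.6% without the low-spread arrays, 34.2% in miR-126KO+AE9a and 46.7% with the spread covariate, and 68.9% in AE9a and 46.4% with the spread covariate. Against AE9a over the passages, Egr3 was lower, differing by −0.98 with added miR-126 (adjusted p = 0.000262) and −1.59 in the knockout (adjusted p = 3.44e-06). Added miR-126 also gave lower Ets2 (−1.55) and Elk4 (−0.67), and the knockout lower Ets1 (−0.47). Against the knockout, Jun (0.40), Ier2 (0.77) and Egr3 (0.61) were higher. Of all genes, 30.7% were higher and 24.3% lower with added miR-126 than in AE9a over the passages. The split of this list was 3 higher and 8 lower, but 7 and 3 under cyclic loess and 5 and 4 under quantile normalization.

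All 14 listed growth factor receptors were measured. At P1 against NC, 3 rose and 1 fell in AE9a+miR-126, 3 rose and 2 fell in miR-126KO+AE9a, and 3 rose and 0 fell in AE9a. The shares of all genes were 4.56% up and 5.18% down in AE9a+miR-126, 4.88% and 5.91% in miR-126KO+AE9a, and 3.22% and 5.64% in AE9a. The hepatocyte growth factor receptor Met rose by 2.67 in AE9a+miR-126, 3.00 in miR-126KO+AE9a and 1.89 in AE9a. Csf2rb, the beta chain shared by several cytokine receptors, rose by 0.91 in AE9a+miR-126, 1.51 in miR-126KO+AE9a and 0.74 in AE9a. Csf2rb2, a beta chain for interleukin receptors found in mice, rose by 1.70 in AE9a+miR-126, 2.76 in miR-126KO+AE9a and 1.31 in AE9a. Over the passages, 30.7% of all genes were higher and 24.3% lower with added miR-126 than in AE9a. Of the receptors 2 were higher and 9 lower. Those that were lower were led by Csf2rb2 (−2.02 ± 0.20, adjusted p = 4.38e-09), Igf1r (−2.18) and Csf3r (−1.92), a receptor that is also on the neutrophil list. The count of lower receptors was 9 under quantile normalization, 8 under cyclic loess, 5 with the spread covariate and 4 without the low-spread arrays. In the knockout 0 were higher and 3 lower (2.88% and 5.29% of all genes), namely Igf1r (−1.29), Csf3r (−1.06) and Pdgfrb (−0.43). Against the knockout, Csf2rb2 (−1.87), Csf1r (−1.51) and Fgfr1 (−1.20) were lower with added miR-126.

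**Figure D5:**
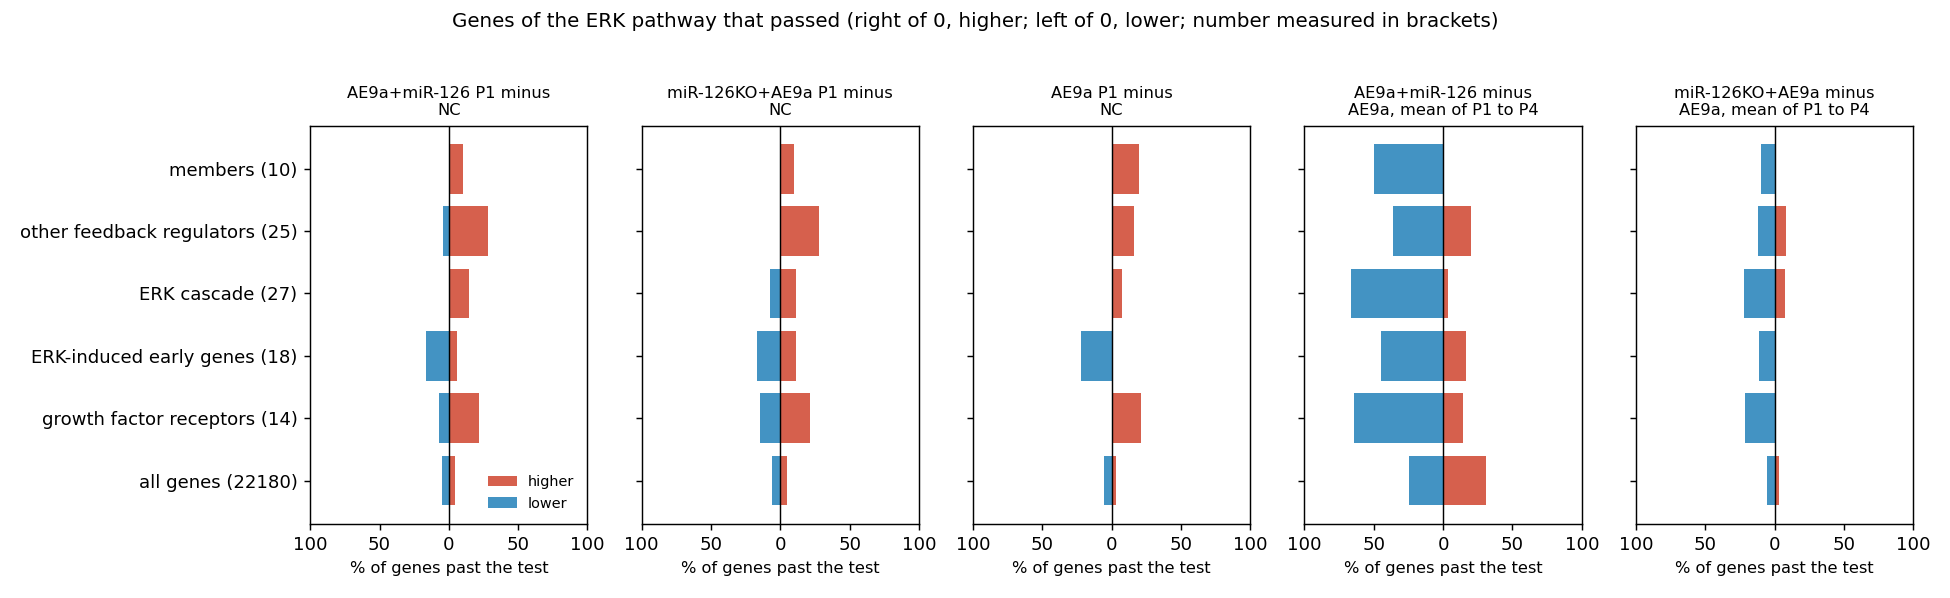
Percent of measured genes (horizontal axis) of each list that passed the test higher (right of 0) or lower (left of 0), beside all genes, where the members are the 10 regulators described above, for the 3 arms at P1 against NC and for the 2 miR-126 arms against AE9a over P1 to P4. With added miR-126, 1 of 27 cascade genes is higher and 18 are lower.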

How the data were processed

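The series was deposited by the authors as 27037 probe sets on the log2 scale, made with RMA and Partek 6.0 per the submitters' processing notes. The sources used here do not give their filters and batch steps. By the platform annotation, 23521 probe sets have a single gene symbol, 1814 have several and 1702 lack one. The single-symbol ones were used, and the highest-mean probe set per gene was kept. Groups came from the array titles.

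A linear model with 13 group means was fitted to all 39 arrays, with 26 residual degrees of freedom in limma 3.58.1 (R 4.3.3). A ± after a difference is its standard error. A gene passed at a Benjamini-Hochberg adjusted p under 0.05 over 22180 genes, with no minimum fold. Intervals are 95% intervals. Median standard errors were 0.222 for 3 mice against 3 and 0.111 for means over passages, which weight P1 to P4 equally. Arrays of a group correlated at 0.885 to 0.992, and 0 pairs were identical.

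The 10 genes and all lists were chosen with earlier results of these data known, so their counts are read against all genes and no list was tested. All 10 genes were named. From each other list, up to 3 genes with the smallest adjusted p among those that passed were named for each arm at P1 against NC and for each mean over passages. For each of the 10 genes the 2 genes with the most similar group means were named. Gene positions and promoters are those of RefSeq on GRCm38.p6, and 6 of the 10 genes had a promoter entry. Alternatives were quantile normalization, cyclic loess, array SD as a covariate, the replicate block, a trended robust prior, leaving out genes under 5 in every group, the mean of a gene's probe sets, leaving out arrays with an SD under 1.8, fitting only the groups compared, and leaving out each array or passage. Without the low-spread arrays, means over passages with added miR-126 leave out P3, and P2 and P4 of that arm keep replicate 3 alone. The fits were tested on simulated data. Descriptions used Python 3.11.15 and figures matplotlib 3.10.9.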

Additional observations from a re-analysis of the deposited data

Results flagged for a closer look

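The difference between AE9a+miR-126 and AE9a was not the same at P4 as at P1 for 2 of the 10 genes, by a test of the change itself. Of all genes, 10.5% passed that test. For Dusp5 the change was −1.98 ± 0.44 on the log2 scale (SE, limma adjusted p = 0.00542). For Spred2 it was −1.30 ± 0.41 (adjusted p = 0.0418), a call lost in 16 of 21 settings. Dusp5 at P4 lay below AE9a in 3 of 3 AE9a+miR-126 mice, and at P1 above AE9a in 3 of 3. The mean level of 12 neutrophil markers moved alongside, with 6.75 to 6.97 at P4 in AE9a+miR-126 and 9.81 to 11.48 at P1 in that arm, and its part in either change was not tested.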

How the results depend on the processing

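Of 3270 results of the 10 genes under an alternative, 3083 kept their side of the threshold (196 of them with a changed sign and passing in neither), 101 no longer passed, 85 newly passed and 1 reversed. The reversed result, a passing call whose sign changed, was Spred2 with added miR-126 against AE9a, 0.11 without the arrays of low spread. That setting leaves out P3, where the Spred2 difference was −1.86, so it is not the same mean over passages. Changes in the count of the 10 genes that passed are not all listed, and those small relative to the count are left out. For added miR-126 against AE9a over the passages, the count was 6 without P1. Under quantile normalization and cyclic loess, Dusp5 was lost from that comparison. Spred2 in AE9a at P4 against NC newly passed under quantile normalization, cyclic loess and the spread covariate. The count changed by a larger share as follows. For AE9a+miR-126 at P1 against NC it was 1, and it was 2 under cyclic loess, with array spread as a covariate and without the low-spread arrays, and 3 with only the groups compared. For miR-126KO+AE9a at P1 it was 1, and 2 under quantile normalization, cyclic loess, the spread covariate, without the low-spread arrays and with only the groups compared. For P4 against NC it was 1 in AE9a+miR-126, 2 with the spread covariate and 0 with only the groups compared, and in AE9a it was 2, and 4 without the low-spread arrays. For added miR-126 against AE9a over the passages it was 5, and 3 with the spread covariate, without P3 and without P4, and 1 without the low-spread arrays. For the knockout against AE9a it was 1, and 2 under cyclic loess and with the spread covariate, and 3 without P1. For added miR-126 against the knockout it was 3, and 1 under cyclic loess, with the spread covariate, without the low-spread arrays, without P3 and without P4. For P4 against P1 in AE9a+miR-126 it was 1, and 2 under quantile normalization, cyclic loess, a trended robust prior, the mean of a gene's probe sets and without the low-spread arrays, and 3 with the spread covariate and with dim genes left out. In miR-126KO+AE9a it was 0, and 1 under quantile normalization, cyclic loess, the spread covariate and without the low-spread arrays, and 2 with only the groups compared. In AE9a it was 1, and 0 under quantile normalization and the mean of a gene's probe sets, 2 under cyclic loess and the spread covariate, and 3 without the low-spread arrays and with only the groups compared. For the change with added miR-126 it was 2, and 1 under quantile normalization, without the low-spread arrays and with only the groups compared, and 0 under cyclic loess. At single passages against AE9a, the count with added miR-126 at P2 was 2, and 1 under quantile normalization, cyclic loess and the spread covariate and 0 without the low-spread arrays. At P3 it was 4, and 1 with the spread covariate, and at P4 4, and 2 under cyclic loess, the spread covariate and without the low-spread arrays. In the knockout it was 1 at P2, and 0 under quantile normalization, cyclic loess and the spread covariate, and 1 at P4, and 2 with the spread covariate and without the low-spread arrays. The cause of these changes was not tested.

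Leaving out 1 mouse at a time gave a count of 1 to 1 for AE9a+miR-126, 1 to 2 for miR-126KO+AE9a and 1 to 2 for AE9a at P1 against NC. At P4 it gave 0 to 1 for AE9a+miR-126, 1 to 1 for miR-126KO+AE9a and 1 to 2 for AE9a. Over the passages it gave 5 to 7 for added miR-126, 1 to 2 for the knockout and 1 to 4 between these arms. For P4 against P1 it gave 1 to 3 in AE9a+miR-126, 0 to 1 in miR-126KO+AE9a and 0 to 0 in AE9a. For the change between passages it gave 1 to 3 with added miR-126 and 0 to 1 in the knockout.

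With the replicate block, the count was 2 for P4 against P1 in AE9a+miR-126, 0 in AE9a, 1 for the change with added miR-126, 1 at P2 with added miR-126 against AE9a, where it was 2 without the block, and 0 at P2 in the knockout against AE9a, where it was 1. The other counts were as without it. The labels do not say whether a number follows a line through passages. Between arrays of different groups with the same number, deviations from the group means had a median correlation of −0.0248, with a range from −0.671 to 0.635. With different numbers the median was 0.0139, with a range from −0.652 to 0.613. These pairs pool arms and passages, so they cannot show whether numbers follow a line within an arm.

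Counts over all genes moved by more than 1.5 times under some setting in every comparison named here. For added miR-126 against AE9a over the passages 12211 genes passed, and 982 without the low-spread arrays. For the knockout 1812 passed, and 2961 with the spread covariate, and for added miR-126 against the knockout 11016, and 2120 without the low-spread arrays. At P1 against NC 2159 passed in AE9a+miR-126, 2393 in miR-126KO+AE9a and 1967 in AE9a, with highest counts of 4043 in AE9a+miR-126, 4232 in miR-126KO+AE9a and 4533 in AE9a. At P4 against NC 6977 (lowest 1677) passed in AE9a+miR-126, 1259 (highest 2670) in miR-126KO+AE9a and 975 (highest 2027) in AE9a. For P4 against P1 the counts were 5395 (lowest 1559) in AE9a+miR-126, 897 (highest 1886) in miR-126KO+AE9a and 652 (highest 1875) in AE9a, and for the change 2336 (lowest 751) with added miR-126 and 95 (highest 424) in the knockout. The median difference over all genes for P4 against P1 in AE9a+miR-126 was 0.127, and 0.0196 under quantile normalization and 0.00213 under cyclic loess. For the change with added miR-126 it was 0.102, and −0.00445 and −0.0176 under the same settings. The precision is limited by 3 mice per group.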

Other observations

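Erythroid, mast cell and lymphoid markers were also read in these arrays. At P1 against NC, 5 of 5 measured erythroid markers fell in AE9a+miR-126 (median −1.72), 3 of 5 in miR-126KO+AE9a (median −1.09) and 5 of 5 in AE9a (median −1.91). Of 7 mast cell and basophil markers, 4 fell in AE9a+miR-126 (median −2.28), 2 in miR-126KO+AE9a (median −1.01) and 4 in AE9a (median −2.22). Of 7 T and NK cell markers measured, 3 fell in AE9a+miR-126, 5 in miR-126KO+AE9a and 1 in AE9a. Of 11 monocyte and macrophage markers measured, 2 rose and 1 fell in AE9a+miR-126, 3 rose and 0 fell in miR-126KO+AE9a, and 1 rose and 2 fell in AE9a. The shares of all genes were 4.56% up and 5.18% down in AE9a+miR-126, 4.88% and 5.91% in miR-126KO+AE9a, and 3.22% and 5.64% in AE9a. No explanation was tested for these marker shifts.

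Dusp6 has a second probe set annotated to it alone, which ranged from 3.28 to 4.49 and had a correlation of 0.074 with the one used over 39 arrays. The second Etv5 probe set ranged from 4.52 to 5.95 and had a correlation of −0.119 with the one used.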
